A study of Homo sapiens with 12 samples.

Results

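Small nucleolar RNA (snoRNA) host genes are genes whose introns carry snoRNAs. The 30 genes described here were all GENCODE genes named SNHG followed by digits alone, together with GAS5 and ZFAS1, out of 62700 annotated genes. A region was counted as theirs when it overlapped the gene body or the window of 1 kb to each side of the transcription start site (TSS). This gave 182 of the 158028 listed regions, 66 of 63442 for the histone variant H2A.Z and 116 of 94586 for its acetylated form, H2A.Zac. The genes lay on 15 chromosomes and ranged from 540 bp (SNHG25) to 442 kb (SNHG14), with a median length of 8.59 kb.

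ChIP-seq was performed in 2 lines of K562, a human chronic myeloid leukemia line. In both, every endogenous copy of EP400 carried a degradation tag (dTAG), and both were exposed to 500 nM dTAGV-1 for 24 h so that the tagged protein was degraded. The control line was rescued with WT EP400 and the other with ΔTRRAP EP400, which lacks the SANT and HD domains that hold TRRAP in the TIP60 complex; both proteins were expressed from the AAVS1 locus. Each line was 1 clone, so the EP400 deletion and any other difference between the clones cannot be told apart. Input, H2A.Z and H2A.Zac libraries were made from 2 biological replicates of each line, 12 libraries in all, and the replicates were merged before the lines were compared. The lists therefore hold neither counts nor values per replicate: the depth is unknown here, and no difference could be set against the spread between replicates or tested.

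A listed region is "lost" when its signal was higher with WT EP400, "gained" when it was higher with ΔTRRAP EP400, and "unchanged" otherwise. Its only value is a log10 likelihood ratio between the lines, which is at least 3 in the lost and gained lists. The ratio measures the evidence for a difference and is no fold change. The shortest region in every list was 250 bp, and 1 peak can be listed in several pieces. Pieces of different classes can overlap: 13 of the 19 changed H2A.Z regions and 36 of the 48 changed H2A.Zac regions of the host genes also overlapped an unchanged region of the same mark (68.4% and 75%, beside 40.3% and 46.7% of all changed regions), and 0 overlapped a region of the opposite direction.

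snoRNAs are cut out of the spliced introns of their hosts and guide chemical modification of other RNAs, chiefly ribosomal RNA. Box C/D snoRNAs (SNORD) direct ribose methylation, box H/ACA snoRNAs (SNORA) direct pseudouridylation, and the related small Cajal body RNAs (SCARNA) act on spliceosomal RNAs. Many host genes are transcribed strongly, and many belong to the terminal oligopyrimidine (TOP) class, whose transcripts, like those of ribosomal proteins, begin with a C followed by a run of pyrimidines. EP400 can place H2A.Z into nucleosomes, TIP60 acetylates it, and both commonly mark nucleosomes around active TSSs. RefSeq placed 149 snoRNAs inside the 30 genes, 121 SNORD, 21 SNORA and 4 SCARNA among them, of which 83 lay in SNHG14 alone and 66 in the other members.

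The starts of several hosts are shown because the regions below are set against them. Each line holds 30 bases of hg38 on the sense strand, 10 before the annotated start and 20 from it, with the longest run of a C and at least 4 pyrimidines that begins within 10 bases of the start in capitals. The start is that of the Ensembl canonical transcript for GAS5 (chr1:173867970-173867999, minus strand) and SNHG29 (chr17:16439027-16439056, plus). It is the RefSeq start for ZFAS1 (chr20:49278632-49278661, plus), SNHG5 (chr6:85678714-85678743, minus), SNHG19 (chr16:2155339-2155368, minus), SNHG32 (chr6:31834906-31834935, plus), SNHG8 (chr4:118278752-118278781, plus), SNHG1 (chr11:62855866-62855895, minus) and SNHG22 (chr18:49814013-49814042, plus).
GAS5: accatactgtCTTTTCgaggtaggagtcga
ZFAS1: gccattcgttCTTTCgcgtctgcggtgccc
SNHG5: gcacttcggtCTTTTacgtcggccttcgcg
SNHG19: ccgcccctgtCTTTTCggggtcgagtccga
SNHG32: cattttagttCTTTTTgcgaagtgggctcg
SNHG29: aaggtgtgaCCTTTTCattcccgttgttat
SNHG8: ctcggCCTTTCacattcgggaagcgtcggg
SNHG1: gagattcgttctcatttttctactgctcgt
SNHG22: tccgctgggcagaggcttgggccgccgagc
In GAS5, ZFAS1, SNHG5, SNHG19 and SNHG32 the run opened on the annotated start base itself. At the SNHG1 start shown, the pyrimidines were interrupted before the fifth base and no run was marked, and the start of SNHG22, a host of a scaRNA, held none. The 9 sequences, and which annotated start is shown for each gene, were chosen after all starts had been read. SNHG1 held a run near its canonical and outermost starts, and GAS5 held none at its RefSeq start.

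How many hosts carried such a run depended on which annotated start was taken. It was found within 10 bases of the RefSeq start in 16 of the 26 members that RefSeq lists (61.5%), beside 33.7% of all genes so listed and 88.9% of 63 ribosomal protein genes. At the canonical start it was found in 12 of 30 (40.0%), beside 29.4% of all genes. At the outermost start of the gene record, which fixes the windows used below, it was found in 7 of 30 (23.3%), beside 29.2% of all genes. The outermost start lay 893 bp before the canonical start in GAS5, 807 bp in SNHG6, 464 bp in ZFAS1 and 270 bp in SNHG29, and 215 kb before it in SNHG14. The windows are therefore placed upstream of the main start in these genes, although moving them to the canonical start changed the class of 0 of the 30 members for either mark. Other starts or widths changed the class of single genes, given below. SNHG27 was unchanged for both marks with 2 kb to each side.

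Most of the host genes carried both marks near their TSS. Within 1 kb of the TSS, 26 of 30 had an H2A.Z region (86.7%) and 27 of 30 an H2A.Zac region (90.0%), compared with 30.5% and 33.0% of all genes, 26.6% and 29.9% of lncRNA genes, 60.0% and 62.2% of protein-coding genes, and 91.1% and 96.2% of the 79 cytosolic ribosomal protein genes. Both marks were present at 25. SNHG27 had no region of either mark in its window or gene body. SNHG14, the 442-kb transcript of the Prader-Willi region that carries the SNORD115 and SNORD116 arrays, had 1 unchanged H2A.Z region 296 kb from its TSS and no H2A.Zac region.

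At these TSSs, gains outnumbered losses for both marks. A window was called gained when it held a gained and no lost region, lost in the opposite case, mixed with both, and unchanged when all of its regions were unchanged. For H2A.Z, 10 of 26 windows were gained (38.5%; Wilson 95% interval, 22.4 to 57.5), beside 20.2% of the windows of all genes with a region, and 3 were lost (11.5%), beside 12.0%. For H2A.Zac, 16 of 27 were gained (59.3%; 40.7 to 75.5), beside 47.1%, and 5 were lost (18.5%), beside 22.2%. The intervals cover counting error only and count the members as independent. The gained share was thus above that of all genes for both marks, with an interval that held the background for H2A.Zac, while the lost shares were near the background.

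Other genes that share features with the hosts are given side by side, without a test. Among ribosomal protein genes, 38.9% of the H2A.Z windows and 72.4% of the H2A.Zac windows were gained, and 2.78% and 7.89% were lost. Among 275 protein-coding genes with a snoRNA inside them, 32.7% and 64.7% were gained, and 6.83% and 11.1% were lost. Among 61 other lncRNA genes with a snoRNA, 26.9% and 55.6% were gained, and 7.69% and 11.1% were lost. Of all lncRNA genes, 1001 of 5015 H2A.Z windows and 2644 of 5637 H2A.Zac windows were gained (46.9% for the latter). The plot of TSS classes by gene group shows these shares.

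**Figure D1:**
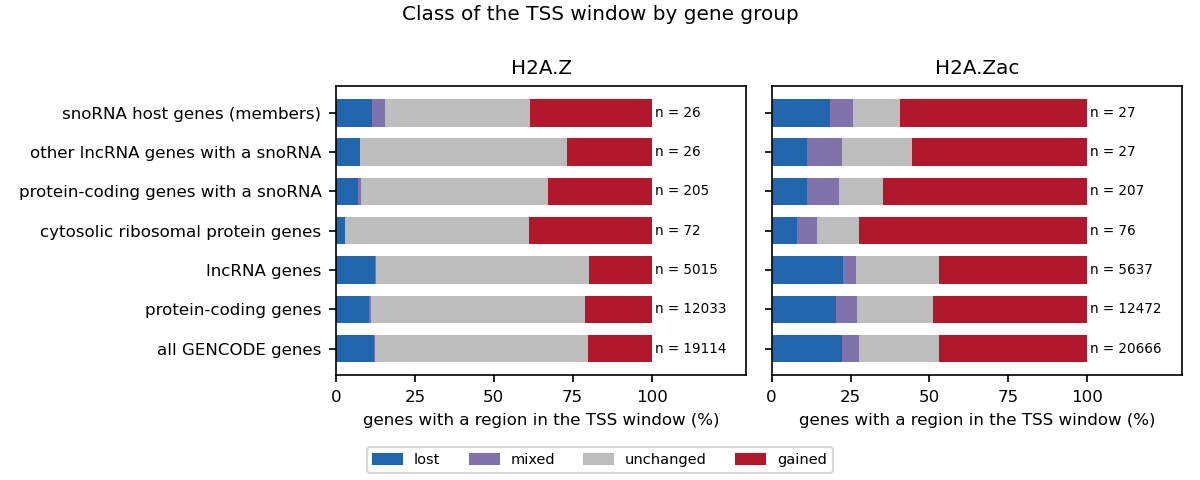
Horizontal bars give the percentage of genes with a region in the 2-kb TSS window that were lost, mixed, unchanged or gained in ΔTRRAP, for H2A.Z (left) and H2A.Zac (right), with the number of such genes beside each bar. The gained part of the bar for the 30 hosts is 38.5% for H2A.Z and 59.3% for H2A.Zac, compared with 20.2% and 47.1% over all genes.

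Counted as regions over windows and gene bodies, H2A.Z had 13 gained, 6 lost and 47 unchanged regions, and H2A.Zac 37 gained, 11 lost and 68 unchanged. Gained regions were 19.7% of the H2A.Z regions of the hosts and 31.9% of their H2A.Zac regions, beside 14.1% and 26.3% of all listed regions. Lost regions were 9.09% and 9.48%, beside 19.8% and 25.9% of all listed regions, most of which are not tied to a host or to a TSS window. Within TSS windows, 5 of the 52 H2A.Z regions of the hosts were lost, beside 2283 of 22417 for all genes, which is a similar share. For H2A.Zac 7 of 70 were lost, beside 5303 of 31938, a lower share in the hosts. Neither difference was tested. Among changed regions the gained share was 68.4% for H2A.Z and 77.1% for H2A.Zac, against 41.6% and 50.4% over all changed regions, which include every region far from a TSS. In TSS windows alone, 12 of the 17 changed H2A.Z regions of the hosts were gained (70.6%), beside 59.2% in the windows of all genes, and 23 of the 30 changed H2A.Zac regions (76.7%), beside 63.9%. Leaving out each gene in turn over windows and gene bodies kept the gained share between 64.7% (without SNHG32) and 76.5% (without SNHG18) for H2A.Z, and between 75.0% (without SNHG16) and 78.7% (without SNHG5) for H2A.Zac.

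The likelihood ratios at the hosts were modest. Gained H2A.Z regions ranged from 4.47 to 7.05 and lost ones from 3.74 to 5.32, while the highest values in the whole lists were 53.4 and 57.0. Gained H2A.Zac regions ranged from 3.33 to 15.5 and lost ones from 4.28 to 22.3, with highest values of 126 and 188 in the whole lists. A ratio of at least 10 was reached by 0 of the 19 changed H2A.Z regions of the hosts, compared with 10.7% of all changed H2A.Z regions, and by 8 of the 48 changed H2A.Zac regions (16.7%), compared with 32.5%. The changes described below are therefore mostly of low ratio, and the plot of ratios by gene shows them all.

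Both marks were gained at the TSS of 6 hosts, GAS5, SNHG1, SNHG4, SNHG6, SNHG8 and SNHG15. These were 6 of the 10 with gained H2A.Z (60%), beside 73.1% of all genes with gained H2A.Z. With 2 kb to each side, or at the RefSeq start, the H2A.Zac window of GAS5 was mixed, and with 500 bp to each side the H2A.Z window of SNHG4 was unchanged. GAS5, the growth arrest-specific transcript that hosts 11 snoRNAs by the RefSeq table, had a gained H2A.Z region of ratio 5.37 over its outermost start (chr1:173868825-173869122). Its gained H2A.Zac region had a ratio of 6.01 (chr1:173867148-173869131), reached into the gene over SNORD74 and covered the TOP-like start printed above. No H2A.Z region covered those 30 bases. The same bases also lay in an unchanged H2A.Zac region of ratio 2.35, so that the deposited lists give this start under both classes.

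SNHG1, the founding host that carries SNORD22 and SNORD25 to SNORD31, had a gained H2A.Z region of ratio 6.89 (chr11:62856098-62857482) and a gained H2A.Zac region of ratio 5.31 (chr11:62856029-62856756). Both lay upstream of the gene, starting 145 and 76 bp from its TSS, and neither covered the start printed above. The record of SLC3A2, which encodes the heavy chain of amino acid transporters, starts 51 bp away on the opposite strand, so these regions lie on the side of that gene. SNHG8, host of SNORA24, had the highest H2A.Z gain of the hosts, with a ratio of 7.05 (chr4:118278719-118279609). Its H2A.Zac gain of 6.95 began at the same base (chr4:118278719-118279726), 16 bp inside the gene, and both covered SNORA24 and the start printed above. SNHG8 had no TSS of another gene within 1 kb, and further down the gene, 5.71 kb from the TSS, it had a lost H2A.Zac region of ratio 6.78. At SNHG4, which carries SNORA74A and shares its TSS region with MATR3, the ratios were 4.56 for H2A.Z and 8.23 for H2A.Zac, at SNHG6, host of SNORD87, 5.09 and 4.68, and at SNHG15, host of SNORA9, 4.98 and 9.10.

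Over unchanged H2A.Z, H2A.Zac was gained at 8 hosts, SNHG3, SNHG9, SNHG10, SNHG16, SNHG19, SNHG21, SNHG22 and SNHG25. With other windows, SNHG3 had no H2A.Z region (500 bp), and H2A.Zac was unchanged at SNHG19 (500 bp) and mixed at SNHG25 (2 kb), and with any transcript start SNHG10 was gained for H2A.Z and mixed for H2A.Zac. By the windows used here, these were 8 of the 12 hosts with an unchanged H2A.Z window (66.7%), beside 44.0% of all such genes, and H2A.Zac was lost at 1 of the 12, SNHG11 (8.33%, beside 15.2%). The highest ratio was that of SNHG22, host of SCARNA17, at 15.5 (chr18:49814451-49815585), in an intron 486 bp from the TSS. SNHG10, host of SCARNA13, had a gain of 10.7 over its outermost start (chr14:95534536-95534893), together with an H2A.Zac loss of 14.9 in an intron 9.27 kb away. SNHG3, the host of SNORA73A and SNORA73B that shares its TSS region with RCC1, had a gain of 9.49 across its TSS, 2083 bp wide. A further gain of 4.74 lay over SNORA73A, which an unchanged H2A.Zac region of ratio 1.02 also overlapped.

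The 4 hosts of a scaRNA, SNHG10, SNHG20, SNHG21 and SNHG22, all had unchanged H2A.Z windows, and 3 of them had gained H2A.Zac, while 67.3% of all H2A.Z windows were unchanged and 47.1% of all H2A.Zac windows gained. Among the 10 box C/D hosts with an H2A.Z region, 5 were gained and 2 lost. Among the 9 box H/ACA hosts 4 were gained and 1 lost, beside 20.2% gained and 12.0% lost over all genes. For H2A.Zac, 6 of 10 box C/D hosts were gained and 2 lost. Of the 9 box H/ACA hosts, 5 were gained and 2 lost for H2A.Zac, beside 47.1% and 22.2% over all genes. These groups are small, and their difference was not tested. Both marks were unchanged at SNHG12, SNHG20 and SNHG31, although SNHG31 was gained for both marks, and SNHG20 for H2A.Zac, with 2 kb to each side. SNHG20 was gained for H2A.Zac also at its RefSeq start and with any transcript start. SNHG7, host of SNORA17A and SNORA17B, had gained H2A.Z at a ratio of 4.47 and unchanged H2A.Zac, and SNHG30, host of SNORD7, had gained H2A.Z at 5.44 and no H2A.Zac region. SNHG29, which carries the SNORD49 pair and SNORD65, had no H2A.Z region and a gained H2A.Zac region of ratio 10.4 (chr17:16438478-16439432) that covered its printed start.

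Losses of both marks were found at SNHG17 and SNHG18, 2 of the 3 hosts with lost H2A.Z, beside 69.5% of all such genes, which is near the background. SNHG18, host of SNORD123, starts 95 bp from the opposite-strand gene SEMA5A, which encodes a semaphorin. Its H2A.Z losses had ratios of 5.32 (chr5:9545647-9545988) and 4.42 (chr5:9546266-9546883), to either side of the TSS, and its H2A.Zac loss had a ratio of 6.12 across it. SNHG17, host of the SNORA71 cluster, lost H2A.Z at a ratio of 3.74, the lowest among the changed H2A.Z regions of the hosts, and H2A.Zac at 6.47. SNHG28, where no H2A.Z region was listed, lost H2A.Zac at a ratio of 8.28 across its TSS (chr1:159854317-159855199).

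At 2 hosts the marks were called in opposite directions. ZFAS1, which hosts SNORD12, SNORD12B and SNORD12C, had a lost H2A.Z region of ratio 3.98 (chr20:49277725-49278065) and a gained H2A.Zac region of ratio 3.66 (chr20:49277385-49277814), both upstream of the gene on the side of ZNFX1. They overlapped each other, and no region of either mark covered the 30 bases of the ZFAS1 start printed above. SNHG5, host of SNORD50A and SNORD50B, had a gained H2A.Z region of ratio 4.67 (chr6:85678993-85679448) and a lost H2A.Zac region of ratio 4.28 that began 571 bp upstream (chr6:85679503-85679827), and these did not overlap. Of the 10 hosts with 1 direction in each mark, 8 had the same one (80.0%), compared with 4423 of 4631 genes (95.5%). The 4 ratios were all under 5, and at a cutoff of 5 neither gene would be called for either mark. With 500 bp to each side, the H2A.Zac window of SNHG5 was unchanged, which left ZFAS1 alone.

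SNHG26 and SNHG32 held both directions in 1 window. For H2A.Zac these were 2 of 27 windows, beside 1158 of 20666 over all genes. For H2A.Z, SNHG26 was 1 of 26, beside 96 of 19114, and neither difference was tested. At SNHG26, host of SNORD93, H2A.Z was lost upstream at a ratio of 4.10 (chr7:22853300-22853648) and gained inside the gene at 5.47 (chr7:22854178-22854832), and H2A.Zac was lost upstream at 6.85 (chr7:22852884-22853796) and gained in an intron at 6.14 (chr7:22854518-22855259). Both marks were thus lost before the TSS and gained after it. At SNHG32, host of SNORD48 and SNORD52, H2A.Z was gained to both sides of the TSS at ratios of 5.00 (chr6:31834196-31834549) and 6.47 (chr6:31834855-31835697). Its H2A.Zac was gained at 9.94 over 2769 bp from before the TSS into the gene (chr6:31834093-31836861), covering SNORD48 and the start printed above. The H2A.Zac loss of 22.3 was the highest ratio among the hosts (chr6:31832155-31833664), but it lay almost wholly upstream, with 57 of its 1510 bp inside the window. With 500 bp to each side, or at the RefSeq start, SNHG32 was gained for H2A.Zac.

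**Figure D2:**
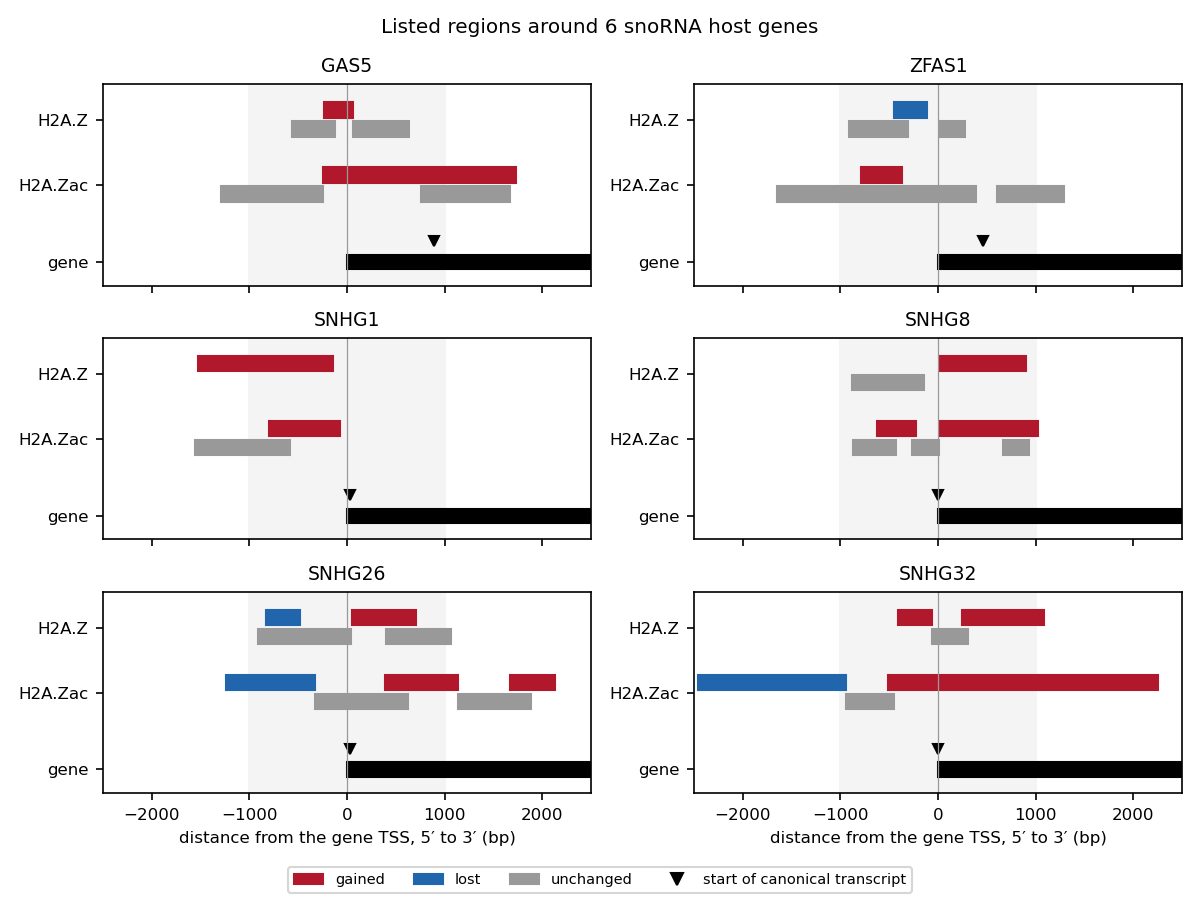
Listed H2A.Z and H2A.Zac regions around 6 host genes, drawn to scale by distance from the outermost gene TSS in the direction of transcription, with gained and lost regions above unchanged ones; the shaded band is the window of 1 kb to each side, the black bar the gene and the triangle the start of the canonical transcript. SNHG8 gains both marks from 16 bp inside the gene, SNHG26 loses both before the TSS and gains both after it, and the loss at SNHG32 enters its window by 57 bp.

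Of the lost base pairs in the windows, 32.3% lay downstream of the TSS for H2A.Z and 32.0% for H2A.Zac, compared with 48.6% and 45.7% for all genes. Of the gained base pairs, 52.0% and 58.7% lay downstream, compared with 55.9% and 55.8%. The lost base pairs rest on few genes, 4 for H2A.Z and 7 for H2A.Zac, and the difference was not tested. All 618 lost H2A.Z base pairs downstream of a TSS came from SNHG18, so that the share ran from 0% without it to 39.4% without SNHG26, and for H2A.Zac from 19.7% without SNHG28 to 40.4% without SNHG17.

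H2A.Z regions of the hosts stood to the sides of the TSS. The TSS base itself was covered by an H2A.Z region in 9 of 26 hosts (34.6%), while the base 300 bp upstream was covered in 18 (69.2%) and the base 300 bp downstream in 16 (61.5%). Over all genes with a region, the TSS base was covered in 64.6%, and over ribosomal protein genes in 34.7%. The bases 300 bp upstream and downstream were covered in 69.1% and 78.5% of all genes, and in 90.3% and 48.6% of ribosomal protein genes. The hosts were thus near all genes upstream and below them downstream. H2A.Zac covered the TSS base of 24 of 27 hosts (88.9%), compared with 81.7% of all genes. The order turned round at the canonical start base, which H2A.Zac covered in 22 of 27 hosts (81.5%), compared with 84.3% of all genes. At canonical starts the H2A.Z share was again 34.6% for the hosts, beside 68.5% for all genes and 26.0% for ribosomal protein genes. A base outside the lists is one without a region of at least 250 bp, which does not mean that it lacked H2A.Z.

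**Figure D3:**
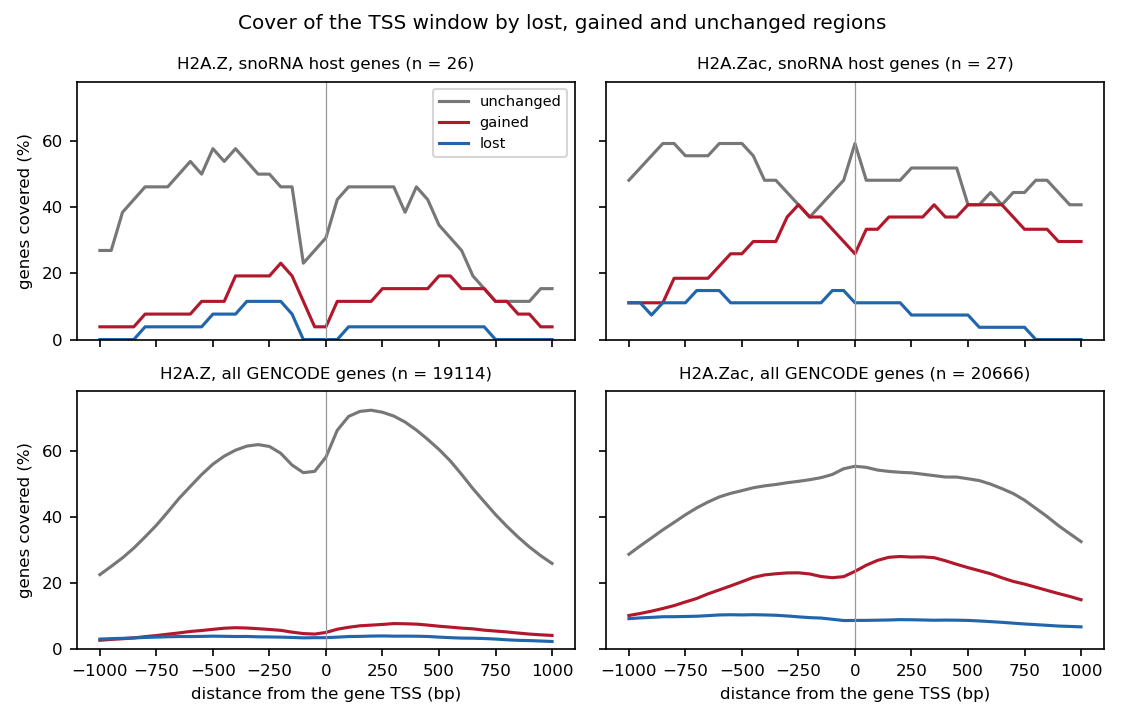
Lines give the percentage of genes covered by an unchanged, gained or lost region at each distance from the TSS, in steps of 50 bp, for the host genes (top) and all genes (bottom) with a region of that mark. In the hosts H2A.Z cover falls at the TSS, where a region of any class covers 34.6%, while H2A.Zac covers 88.9%.

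Beyond the TSS windows, the changed regions came mainly from SNHG16. This 113-kb gene, host of SNORD1A, SNORD1B and SNORD1C, held 32 of the 116 H2A.Zac regions, 10 gained, 2 lost and 20 unchanged, and 8 H2A.Z regions, of which 1 was lost and 7 were unchanged. Only 1 of the gained regions, with a ratio of 5.13, touched its TSS window. The highest gains in its introns had ratios of 12.6 at 48.7 kb and 12.1 at 65.3 kb from the TSS, and the highest loss 16.0 at 110 kb. Of the 149 snoRNAs inside the hosts, 83 of them in SNHG14, 13 lay under a listed region (8.72%), beside 4.46% of all 1233 RefSeq snoRNAs. Of these 13, 6 lay under a gained region (SNORD74, SNORA73A, SNORA24, SNORA78, SNORD104 and SNORD48) and 0 under a lost one. Among these 6, SNORD74, SNORA73A, SNORA78 and SNORD104 also lay under an unchanged region. Of all 55 RefSeq snoRNAs under a listed region, 27 lay under a gained one (49.1%, beside 46.2% for those in the hosts) and 6 under a lost one, so the gained share was near the background.

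The direction of change around each host is given beside its own, since it varied along the chromosomes. For each host, the gained share was counted among the other changed regions within 2.5 Mb. For the 3 hosts with lost H2A.Z it was 1.85% (ZFAS1), 1.75% (SNHG17) and 13.3% (SNHG18), while for the 10 with gained H2A.Z it ran from 20.7% (SNHG7) to 92.3% (SNHG6), with a median of 49.8%. For H2A.Zac the 5 lost hosts ran from 13.2% to 56.9% with a median of 26.2%, and the 16 gained ones from 18.0% (ZFAS1) to 69.2% (SNHG8) with a median of 48.5%. The lost and gained hosts did not overlap in this share for H2A.Z and did for H2A.Zac, but the 12 hosts with unchanged H2A.Z ran from 1.72% to 76.9% (median 30.4%), across the lost and most of the gained ones.

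ZFAS1, SNHG11 and SNHG17 lie on the long arm of chromosome 20, where few changed H2A.Z regions nearby were gained, 2 of 108 around ZFAS1, 1 of 58 around SNHG11 and 1 of 57 around SNHG17. SNHG11 and SNHG17 start so close together that their surroundings are nearly the same regions, and they count in the ranges above as separate hosts. Of the 5 one-way changes at these genes, 4 were losses and the H2A.Zac gain at ZFAS1 was the exception. Without them, 10 of 23 H2A.Z windows were gained and 1 lost, and 15 of 24 H2A.Zac windows were gained and 3 lost. Over all genes, which include those of chromosome 20, 20.2% of H2A.Z windows were gained and 12.0% lost. For H2A.Zac these shares were 47.1% and 22.2%. The lost shares of the remaining hosts lay below those of all genes, but chromosome 20 was left out for the hosts alone. With all hosts the lost shares were 11.5% (H2A.Z) and 18.5% (H2A.Zac), near those of all genes. The part of the surrounding stretch in the results at these genes was not tested.

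**Figure D4:**
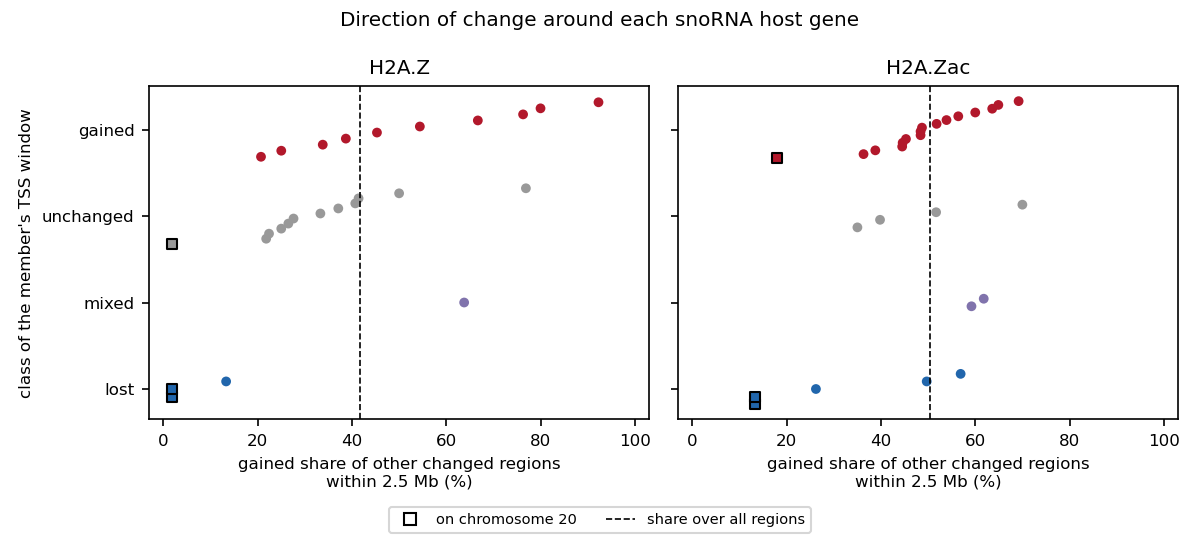
Each point is a host gene, placed by the class of its TSS window and by the percentage of gained regions among the other changed regions of that mark within 2.5 Mb; squares with black edges lie on chromosome 20, and dashed lines mark 41.6% (H2A.Z) and 50.4% (H2A.Zac), the gained share over all changed regions. The 3 hosts with lost H2A.Z sit at 13.3% or below, under all 10 hosts with gained H2A.Z.

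Many hosts share their TSS region with another gene, and the lists cannot assign a region to 1 of them. At 15 of the 30, another lncRNA or protein-coding gene starts within 1 kb, counted from either its outermost or its canonical start. GLRX5 beside SNHG10 counts by its canonical start alone, 161 bp away, while SLC3A2 beside SNHG1 and an unnamed protein-coding gene beside SNHG5 count by their outermost start alone. In these, 4 of 14 H2A.Z windows were gained and 2 lost, and 11 of 15 H2A.Zac windows were gained and 3 lost. In the other 15 hosts, 6 of 12 H2A.Z windows were gained and 1 lost, and 5 of 12 H2A.Zac windows were gained and 2 lost, with 2 mixed. The gained shares for H2A.Z and H2A.Zac were 28.6% and 73.3% in the first set and 50% and 41.7% in the second. Over all genes they were 20.2% and 47.1%, so that H2A.Zac in the second set lay below the background. Lost windows made up 12.0% (H2A.Z) and 22.2% (H2A.Zac) over all genes. Examples of shared starts are SNHG9 with RPS2, a ribosomal protein gene 54 bp away, SNHG19 with TRAF7, SNHG22 with ACAA2 and SNHG31 with BARD1.

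Promoter sequence was searched for 5 motifs from 250 bases before to 50 after the outermost TSS, on both strands. CACGTG, the E-box bound by MYC and related factors, was found in 5 hosts (16.7%), beside 5.54% of all promoters of the same length and 8.35% of those of protein-coding genes. The 30 bases around each site are shown on the sense strand with the E-box in capitals, for SNHG7 (chr9:136728289-136728318, minus), SNHG9 (chr16:1964792-1964821, plus), SNHG25 (chr17:64145857-64145886, plus), SNHG29 (chr17:16438656-16438685 and chr17:16438670-16438699, plus) and SNHG30 (chr17:35568037-35568066, plus), to show where the letters lie.
SNHG7: ctgagcagcgccCACGTGcgggcgcgggga
SNHG9: accaacaggactCACGTGttttgtcggaaa
SNHG25: caactttacgcgCACGTGgtcgcaaggtga
SNHG29, first site: tctacaggctttCACGTGtgtcatctcacg
SNHG29, second site: cgtgtgtcatctCACGTGatcttctggggc
SNHG30: ctcaggggcgccCACGTGacccgatggccg
The sites began 122 bp (SNHG7), 91 bp (SNHG9), 68 bp (SNHG25), 99 and 85 bp (SNHG29) and 1 bp (SNHG30) before the TSS. A match is a description of the letters and not a bound site. These 5 hosts had a gain in at least 1 mark and no loss, as had 17 of the 28 hosts with a region in the TSS window, so nothing is read from it. CCAAT was found in 36.7% of the hosts and 36.5% of all promoters, TATAAA in 13.3% and 17.1%, CCGGAAGT in 3.33% and 2.29%, and the NRF1 motif in 3.33% and 0.699%. The median GC content was 60.7% in the hosts, 60.3% in protein-coding genes and 49.7% in all genes.

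The proteins that package snoRNAs were counted by the same window rule, and their gained shares are to be read beside 20.2% of all genes for H2A.Z and 47.1% for H2A.Zac. Of the 8 core proteins, FBL and NOP56, NOP58 and SNU13 form the C/D particles, and DKC1, NHP2, NOP10 and GAR1 the H/ACA particles. H2A.Z was gained at NOP56 (4.99), DKC1 (5.44) and GAR1 (5.58), lost alone at 0, mixed at NOP10 and unchanged at the other 4. H2A.Zac was gained at NOP56 (3.74), NOP58 (4.36) and SNU13 (6.05), lost at NHP2 (9.10), mixed at NOP10 and GAR1, and unchanged at FBL, while DKC1 had no H2A.Zac region. The gained windows made up 37.5% (H2A.Z) and 42.9% (H2A.Zac) of those with a region, the latter under the background. The H2A.Zac loss at NOP10 had a ratio of 29.1, above that of every host. Of the 9 assembly factors, H2A.Z was gained at 1 of the 7 with a region, ZNHIT6 (4.98), and lost at 0. H2A.Zac was gained at 4 of 9 (44.4%, near the background), NAF1 (4.57), NUFIP1 (4.07), RUVBL1 (3.40) and PIH1D1 (5.57), lost at SHQ1 (3.50) and ZNHIT3 (5.15), and unchanged at ZNHIT6, RUVBL2 and RPAP3.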

How the data were processed

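H2A.Z and H2A.Zac ChIP-seq of the WT and ΔTRRAP lines was read from the 6 deposited region lists. The deposited score of a region is the log10 likelihood ratio that the authors obtained with MACS2 bdgdiff after merging replicates and scaling both lines to equal effective depth. The authors kept regions of which 25% lay in peaks at an IDR of 0.05, on hg38. The lists are thus the authors' own comparison, and they were used as the only measurement. The submitters' processing notes name Bowtie2 2.4.5, MACS2 2.2.7.1, bedtools 2.30.0 and deepTools 3.5.1.

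Regions were assigned to genes of GENCODE release 44, a later release than the study's, at an overlap of 1 bp. Sequences came from hg38, and snoRNAs and RefSeq starts from RefSeq tables of GRCh38.p14, which listed 26 of the 30 members. Python 3.11.15, numpy 2.4.6, scipy 1.17.1, matplotlib 3.10.9 and bedtools 2.31.1 were used. Window classes were checked on 400 simulated windows, of which 400 were recovered. The number of overlapping H2A.Zac regions was checked against a direct count in windows around 300 sampled real regions, of which 300 were equal.

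The genes named in full are GAS5, ZFAS1, SNHG1, SNHG14, the 3 members with the highest ratio in the TSS window for each mark and direction, and every member with opposite directions. SNHG6 sequence is not printed. The E-box genes were named after their sites were found. The members, lists and comparisons were chosen with earlier results of these data known. The alternatives were other windows, TSSs, overlaps, ratio cutoffs, merging, base pairs and gene exclusions. Input libraries and signal tracks were not analysed here.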

Additional observations from a re-analysis of the deposited data

How the results depend on the processing

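Of 60 alternatives, 45 left a count within 1.5 times the one reported or a share within its 95% interval, and the gained share of changed regions stayed above 50% wherever it had a value. With changed regions of a ratio of at least 5, the gained share of changed H2A.Z regions was 88.9% (8 of 9) and 1 H2A.Z window was lost. At a ratio of at least 10, no changed H2A.Z region was left, so that 0 windows were gained, 0 were lost and the gained share had no value, while for H2A.Zac the gained share was 62.5% (5 of 8), with 3 windows gained and 1 lost. In the hosts with no other TSS within 1 kb, 6 H2A.Z windows were gained and 1 lost, and 5 H2A.Zac windows were gained and 2 lost, from fewer genes by construction. With TSS windows alone, the H2A.Zac regions fell to 70. The share of hosts with a TOP-like start depended on the start: it lay under that of all genes at the outermost start (23.3% beside 29.2%, and 43.3% beside 47.8% within 20 bp) and above it within 5 bp of that start (6 of 30 beside 17.0%) and at canonical starts (40.0% beside 29.4%). It was 61.5% at RefSeq starts and 86.7% at any transcript start, where all genes stood at 45.9% and protein-coding genes at 73.2%; members with many transcripts have more starts to match. The RefSeq starts, the canonical and other transcript starts for the TOP-like share, and the exclusion of chromosome 20 alone were added after the data were seen. No paired analysis was possible because the replicates had been merged before the lists were made, and for the same reason no replicate could be left out. Depth is unknown, so the smallest change that could have been listed at any host cannot be given, and gene expression was not analysed here.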
